A study of Mus musculus with 12 samples.

Results

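Potassium channel genes were examined in the ventral hippocampus (vHPC) of male mice on a C57BL/6 background. The members were all genes listed in both deposited tables whose symbol begins with Kcn, followed by further letters and a digit, with 1 gene of that pattern left out by the rule. This gave 82 of 17564 genes, and their expression is the authors' mean over libraries of the study. Each library held RNA pooled from 2 animals, and the labels place 12 libraries in 4 groups of 3. WT mice and BDNF het-Met mice each received either VEH or CORT. In BDNF het-Met mice, a knock-in allele of Bdnf, which codes for a growth factor of neurons, is paired with a wild-type allele and carries the Val66Met exchange. CORT mice drank corticosterone, the main glucocorticoid of rodents, at 25 mg/l in 1% ethanol for 6 weeks from 2 months of age. VEH mice drank 1% ethanol alone over the same weeks, so all 4 groups had ethanol.

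Potassium channels let potassium leave or enter the cell and thereby set the resting potential, shape the action potential and limit repeated firing. Voltage-gated channels open on depolarization, and calcium-activated channels open when calcium rises. Inward rectifiers pass current more readily into the cell than out of it, and tandem-pore (K2P) channels carry a steady leak. Pore subunits assemble as multimers, and auxiliary subunits change their gating, their stability or the part of the neuron they reach.

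The only measure of expression used here was the authors' mean over the libraries, as log2 of the counts scaled to the library total (log2 CPM). It was identical in both tables, so it is not the mean of 1 genotype. Levels per library and per group were not analysed here, and the columns that set VEH against CORT within a genotype are the authors' own comparisons and were not used. The effect of CORT in each genotype and the spread between libraries are therefore not given, no difference below was tested, and the order of genes with nearby values is not established. The tables list 7 residual degrees of freedom, where 12 libraries in 4 groups would leave 8, so it is not known whether every library entered the mean. The number of reads per library is also unknown. Long transcripts collect more reads, so genes are compared below by the level, which is the mean log2 CPM minus log2 of the exon length in kb.

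The channel genes covered a wide range of levels, from -3.62 for Kcnn4 to 6.86 for Kcnab2. Their median level was 2.11, beside 1.96 over the 17551 genes with an annotated length. Of the 82 members, 44 lay above the median of all genes, 28 in the highest 25% and 15 in the lowest 25%. All 82 had passed whatever filter on weakly expressed genes the authors applied, so the counts describe listed genes and not the whole gene family. The mouse annotation holds 97 genes that meet the rule, and the other 15 were not analysed here. The members together made up 0.589% of the summed expression on the linear CPM scale. A few genes carried much of the family, since the 10 members of highest level held 45.3% of the summed linear level of the 79 protein-coding members.

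Among the 4 main classes of pore subunits, voltage-gated genes had the highest median level (3.52, 27 genes), followed by inward rectifiers (2.68, 12 genes), calcium-activated channels (1.97, 5 genes) and K2P channels (1.35, 10 genes). The silent modifiers described below were counted as a class of their own. Under the rule, the annotation names 30 voltage-gated pore genes, 14 inward rectifiers, 5 calcium-activated pore genes and 14 K2P genes. The listed part thus differed between classes, and the medians describe listed genes only. The ranges overlapped widely. Levels ran from -2.46 to 4.82 in the voltage-gated genes named below, which are not the whole class, so its upper end is not given. In the other classes, all members were covered. The gene left out by the rule was an inward rectifier, so the values of that class do not include it. Their levels ran from -2.87 to 5.15 in inward rectifiers, from -3.62 to 4.51 in calcium-activated genes and from -2.50 to 4.60 in K2P genes. As shares of the summed linear level of all protein-coding members, voltage-gated pore genes held 37.3%, inward rectifiers 16.5%, K2P channels 5.84% and calcium-activated channels 3.96%. The highest 25% of all genes held 14 of 27 voltage-gated genes, 4 of 12 inward rectifiers, 1 of 10 K2P genes and 1 of 5 calcium-activated genes.

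**Figure D1:**
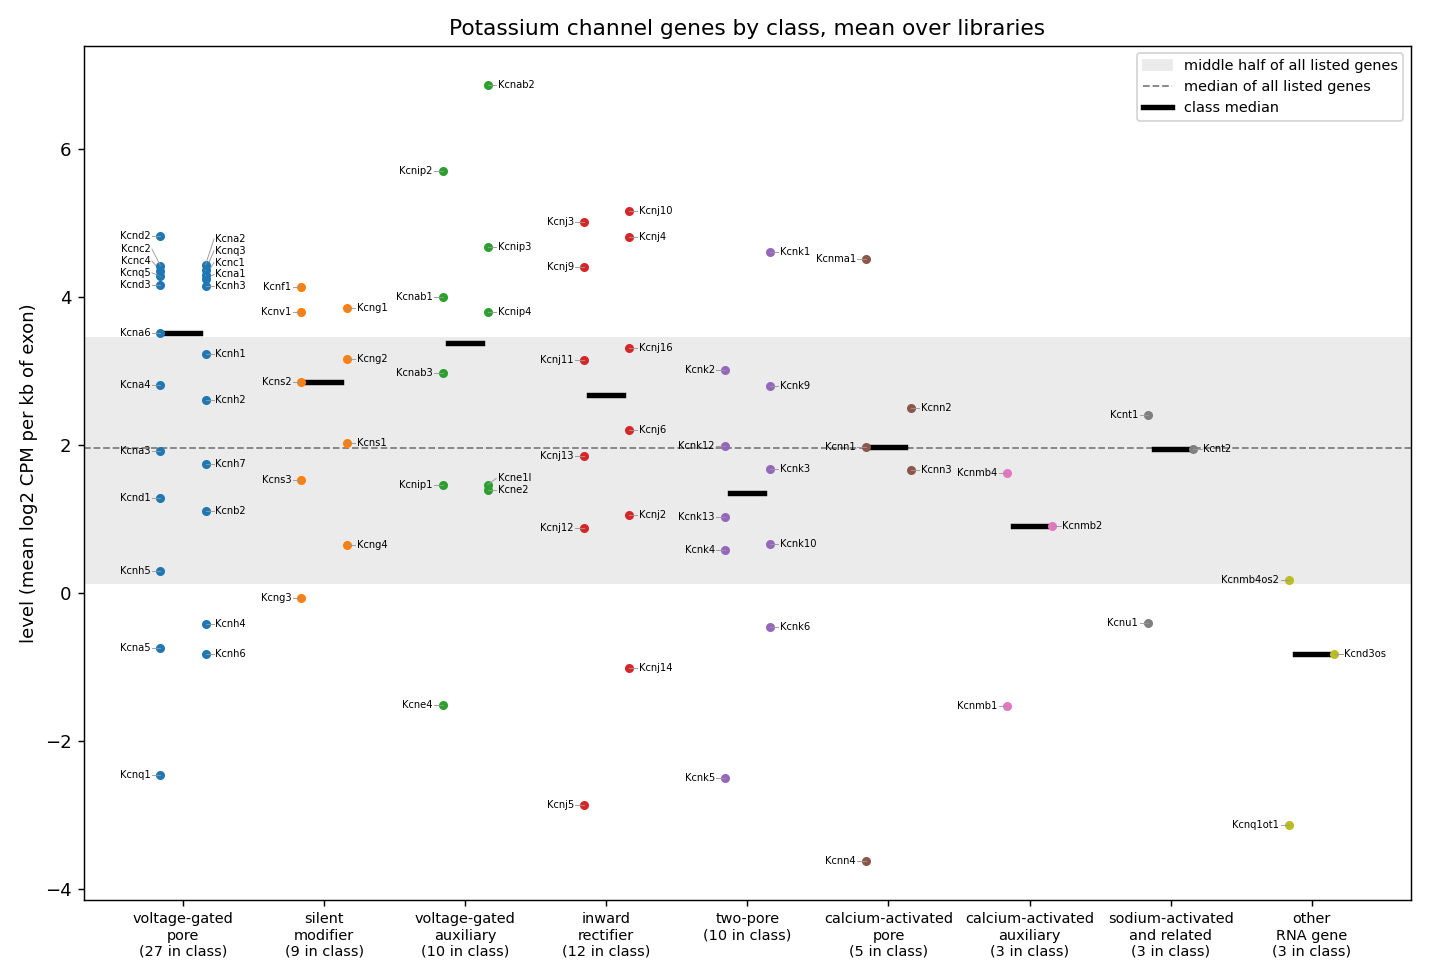
Level of 78 of the 82 potassium channel genes (mean log2 CPM per kb of exon, vertical axis) by class, with 1 point per gene, a black bar at the median of the whole class and a grey band for the middle of the distribution of all genes (0.13 to 3.45) around their median of 1.96 (dashed line). A dense group of voltage-gated genes sits between 4.14 (Kcnh3) and 4.43 (Kcna2), and Kcnab2 stands highest at 6.86; the column headed two-pore holds the K2P genes.

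Kv7 genes code for the M-current, a slow current that restrains repeated firing and is closed by muscarinic receptors. Kcnq3 and Kcnq5, which are expressed in the brain, had levels of 4.36 and 4.28. Kcnq1, the subunit of the heart, was lowest of the voltage-gated class at -2.46.

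Kv4 genes code for the pore of the A-type current, which inactivates quickly and damps signals travelling back into dendrites. Kcnd2 (chromosome 6, 21215503 to 21729805, protein coding) had a level of 4.82 and Kcnd3 of 4.16, while Kcnd1 was at 1.28. The Kv3 genes, whose channels close fast and permit the short spikes of fast-firing neurons, were close to each other. Their levels were 4.42 for Kcnc2, 4.35 for Kcnc4 and 4.29 for Kcnc1, and each lay in the highest 25% of all genes.

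Kv1 genes, which code for low-threshold channels of axons, were uneven. Kcna2 and Kcna1 had levels of 4.43 and 4.25, Kcna6 was at 3.52 and Kcna4, an A-type member, at 2.82. Kcna3 lay at 1.92, near the median of all genes, and Kcna5 at -0.74. The value of Kcna6 is less certain than the rest, since 39.6% of its exon bases overlap a gene on the other strand, and whether strand was used in counting is not given in the sources used here. Of the Kv2 genes, which code for delayed rectifiers of the cell body, Kcnb2 was at 1.10. In the ether-a-go-go families (Kv10 to Kv12), Kcnh3 had the highest level at 4.14 (4.78 with the longest transcript), followed by Kcnh1 at 3.22, Kcnh2 at 2.61 and Kcnh7 at 1.74. Kcnh5, Kcnh4 and Kcnh6 lay at 0.30, -0.42 and -0.82.

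The silent modifiers (Kv5, Kv6, Kv8 and Kv9) form no channel alone and alter Kv2 channels when they join them. The 9 listed genes had a median level of 2.85. Kcnf1 was highest at 4.13, followed by Kcng1 at 3.85, Kcnv1 at 3.80, Kcng2 at 3.16 and Kcns2 at 2.85. Kcns1 and Kcns3 lay at 2.03 and 1.52, and Kcng4 and Kcng3 were lowest at 0.65 and -0.07. On the linear scale these genes summed to 71.5 CPM per kb.

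The auxiliary subunits of voltage-gated channels included the highest members of the whole family. Kcnab2 (chromosome 4, 152390742 to 152477871, protein coding) codes for a beta subunit that binds Kv1 channels and helps them reach the axon. Its level of 6.86 lay at the 98.6th percentile of all genes, and it alone held 48.5% of the summed linear level of the 10 auxiliary genes. Kcnab1 and Kcnab3 had levels of 4.001 and 2.97, and Kcnab1 was at 4.97 with the longest transcript. The KChIP genes code for calcium-binding partners of Kv4. Kcnip2 was at 5.70, Kcnip3 at 4.67, Kcnip4 at 3.79 and Kcnip1 at 1.46. With the longest transcript, Kcnip4 was at 4.39 and Kcnip1 at 2.06. Kcnip2 therefore lay above both of the prevailing Kv4 pore genes, Kcnd2 and Kcnd3. The Kcne genes, small membrane proteins that modify several pores, were lower, with Kcne1l at 1.47, Kcne2 at 1.39 and Kcne4 at -1.51.

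Among inward rectifiers, Kcnj10 (chromosome 1, 172341210 to 172374085, protein coding) had the highest level at 5.15. It codes for the main potassium channel of astrocytes, which takes up potassium released by active neurons. Kcnj16, which codes for a subunit that pairs with it, was at 3.32. The G protein-gated channels, which inhibit neurons when receptors such as those for GABA or serotonin are active, were represented by Kcnj3 at 5.005, Kcnj9 at 4.40 and Kcnj6 at 2.20, whereas the atrial member Kcnj5 lay at -2.87. The value of Kcnj6 depends on its length: with the longest transcript in place of all exons it was 3.27. Of the exon bases of Kcnj3, 31.1% overlap a gene on the other strand.

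The remaining inward rectifiers covered the same span. Kcnj4, a strong rectifier of forebrain neurons, was at 4.81, while the related genes Kcnj2, Kcnj12 and Kcnj14 were at 1.06, 0.88 and -1.02. The value of Kcnj14 is less certain, since 24.6% of the 75-base stretches of its transcripts also occur in Gm5522. Kcnj11, the pore of ATP-sensitive channels that link metabolism to excitability, was at 3.15. Abcc8, the sulphonylurea receptor that completes this channel in neurons, had a level of 1.75. Kcnj13, known from the choroid plexus, was at 1.85. The choroid plexus genes Ttr, Kl, Folr1 and Aqp1 had levels of 9.19, 2.94, 1.64 and 1.03 in the same means, and their part in the value of Kcnj13 was not tested. Moreover, 49.1% of the exon bases of Kcnj13 overlap Gigyf2, which lies on the other strand.

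K2P genes were led by Kcnk1 (chromosome 8, 125995170 to 126030685, protein coding), a weakly active leak channel, at 4.60. Kcnk2, which responds to stretch and fatty acids, was at 3.01, and the acid-sensitive channels Kcnk9 and Kcnk3 were at 2.79 and 1.68. Kcnk1 held 46.4% of the summed linear level of the class. The others lay at or below 1.98, with Kcnk12 at 1.98, Kcnk13 at 1.03, Kcnk10 at 0.66, Kcnk4 at 0.59, Kcnk6 at -0.46 and Kcnk5 at -2.50. Kcnk4 was at 1.40 with the longest transcript. Of the exon bases of Kcnk4, 13.1% overlap Catsperz on the same strand, so strand could not separate those reads. The order of the upper K2P genes changed with the scale: before division by length, Kcnk9 (6.41 log2 CPM) stood above Kcnk1 (5.76 log2 CPM), because the exons of Kcnk9 span 12300 bases and those of Kcnk1 span 2235.

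**Figure D2:**
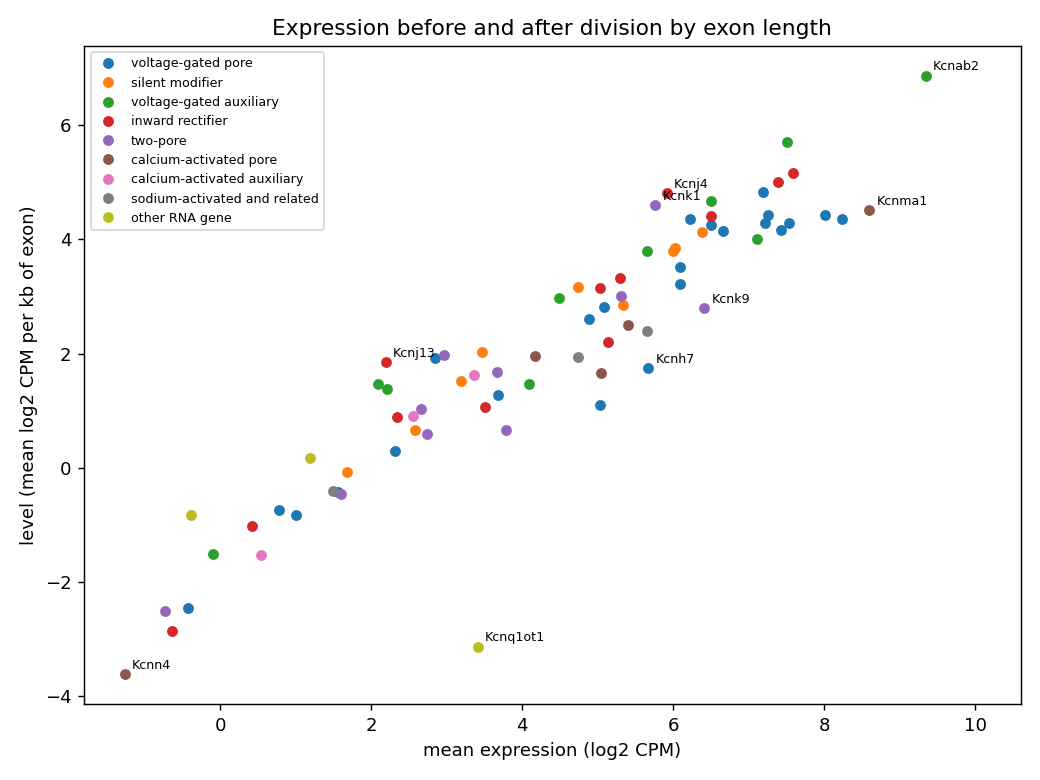
Mean expression of 78 of the 82 potassium channel genes (log2 CPM, horizontal axis) against its level after division by exon length (mean log2 CPM per kb, vertical axis), coloured by class. Most genes lie along 1 band, while Kcnq1ot1 falls to -3.13 despite 3.41 log2 CPM because its single exon spans 93092 bases, and Kcnk9 drops below Kcnk1.

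Calcium-activated channels were dominated by Kcnma1 (chromosome 14, 23289431 to 24014491, protein coding), the pore of the large-conductance (BK) channel that ends the spike. Its level was 4.51, and it held 64.1% of the summed linear level of the class. The small-conductance (SK) channels, which carry the medium afterhyperpolarization, followed with Kcnn2 at 2.50, Kcnn1 at 1.97 and Kcnn3 at 1.66. Kcnn2 was at 3.52 with the longest transcript. Kcnn4, the intermediate-conductance channel known from blood cells, was lowest of all members at -3.62. Among the BK beta subunits, Kcnmb4, the neuronal form, was at 1.62, Kcnmb2 at 0.91 and Kcnmb1, the form of smooth muscle, at -1.52. Kcnmb4 rose to 2.66 when the longest transcript was used, and 31.5% of its exon bases overlap genes on the other strand.

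The sodium-activated channels Kcnt1 and Kcnt2 had levels of 2.40 and 1.95, near the median of all genes. The related sperm channel Kcnu1 was at -0.41. The rule also took 3 genes that make no protein. The antisense genes Kcnmb4os2 and Kcnd3os had levels of 0.17 and -0.83, and Kcnq1ot1, the long antisense RNA of the imprinted Kcnq1 locus, was at -3.13. Each overlaps exons of its partner, and reads of the pair cannot be told apart if strand was not used.

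Several members lie beside each other on a chromosome, and the differences in level within such pairs ranged widely. On chromosome 6, Kcna5 (-0.74) lies 104984 bases from Kcna1 (4.25) and 172916 bases from Kcna6 (3.52), while Kcna1 and Kcna6, 61944 bases apart, differed by 0.73. On chromosome 3, Kcna3 (1.92) and Kcna2 (4.43) are 63075 bases apart. Kcnj16 (3.32) and Kcnj2 (1.06) are 38195 bases apart on chromosome 11. The pair Kcnj9 (4.40) and Kcnj10 (5.15), 11891 bases apart on chromosome 1, was the closest in space among the pairs that do not overlap, and both genes were high.

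**Figure D3:**
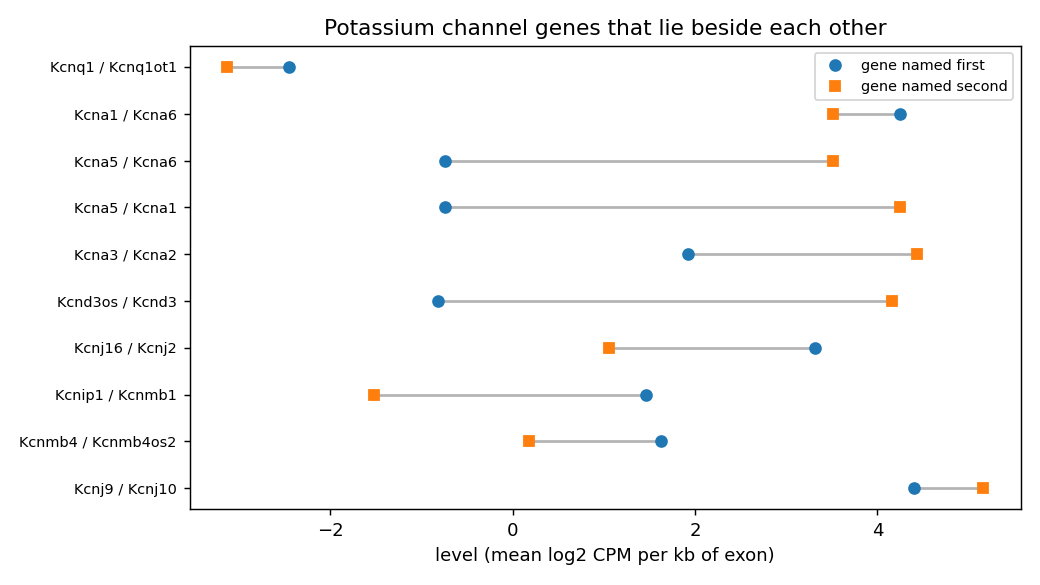
Levels (mean log2 CPM per kb of exon, horizontal axis) of the 10 pairs of potassium channel genes that overlap or lie within 200000 bases of each other, with a circle for the gene named first and a square for the second. Kcna5 lies at -0.74 and Kcna1 at 4.25, whereas Kcnj9 and Kcnj10 lie at 4.40 and 5.15.

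Among genes that work with these channels but carry other names, Dpp6, a Kv4 auxiliary protein, had a level of 5.10, compared with 2.42 for Dpp10. Amigo1, a partner of Kv2, was at 4.39, Cntnap2, which anchors Kv1 beside the node of Ranvier, at 4.20 and Lgi1, a secreted protein tied to Kv1, at 3.75. The hyperpolarization-activated channels Hcn2, Hcn3 and Hcn4 were at 5.05, 1.41 and -0.90, and the leak channel Nalcn was at 3.50. Abcc9 and Lrrc55, partners of inward rectifiers and of BK, were at 0.36 and 1.04.

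Markers of the labelled tissue were present in the same means. The neuronal genes Snap25, Syt1 and Rbfox3 had levels of 8.66, 7.94 and 5.33, the dentate granule genes C1ql2, Prox1 and Dsp of 4.93, 3.62 and 2.02, and the pyramidal genes Fibcd1, Wfs1, Grik4 and Nts of 5.46, 4.55, 3.72 and 1.23. Of neighbouring regions, whose ranges overlapped those of the hippocampal genes, the thalamic genes Tcf7l2, Prkcd and Rora ranged from -0.62 to 2.09 and the striatal genes Drd1, Drd2 and Ppp1r1b from 0.27 to 3.88. Genes of glia were also present. Levels ranged from 4.41 to 7.64 in 3 oligodendrocyte genes, with Mbp at 7.41. They ranged from 3.59 to 6.14 in 3 astrocyte genes, with Gfap highest, and from 2.96 to 4.11 in 3 microglial genes, with Cx3cr1 at 3.72. In 4 genes of interneurons the range was 4.15 to 7.91, with Sst highest. In RNA from whole tissue, the number of cells of a type and the RNA per cell cannot be told apart, so a level does not say in which cells a channel gene was expressed.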

How the data were processed

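RNA-seq was made by the authors from the vHPC of 12 libraries in 4 groups of 3, as stranded 75-bp single-end reads. Per the methods and the submitters' processing notes, low-quality reads were discarded, the rest were aligned to GRCm38 (mm10) with STAR and Ensembl annotation, counted per gene with featureCounts and fitted with limma-voom. The filter on weak genes, tool versions, normalization factors and strand use were not given in the sources used here. Deposited log2 values are the mean log2 CPM of each gene over the libraries, made by the authors. The tables also hold the authors' own comparisons of VEH with CORT in each genotype (fold changes, standard errors, test statistics and p-values). These columns were not used, so no test was run, and depth per library is unknown. No error is therefore given for any level.

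Exon lengths (union of all annotated exons), biotypes and coordinates (counted from 1) came from GENCODE M21 on GRCm38 by Ensembl identifier, with 17551 of 17564 identifiers matched. Linear levels are 2 to the power of the mean log2 value, a geometric mean over libraries. Classes followed the letters of the gene symbol. Exon overlap with other genes and shared 75-base words between transcripts were computed, and 50 of 82 members shared no such word with another gene. Named genes were, per class, the 3 highest and 2 lowest by level and a list of well-known hippocampal channels; further members were named to complete a class, and some genes are not reported here. The members and lists were chosen with earlier results of these data known. Python 3.11.15, numpy 2.4.6 and pandas 2.3.3 were used. The length calculation was run on simulated data, which checks its arithmetic but not the annotation or the choice of length. Alternatives were the longest transcript, a filter on low values, sums in place of medians and expression without length.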

Additional observations from a re-analysis of the deposited data

How the results depend on the processing

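With the longest transcript in place of all exons, median levels became 3.54 for voltage-gated pore genes, 2.89 for silent modifiers, 3.77 for voltage-gated auxiliary genes, 3.33 for inward rectifiers, 1.57 for K2P channels, 2.15 for calcium-activated pores, 1.01 for their auxiliary subunits and 2.20 for sodium-activated and related channels. With only genes above 1 log2 CPM (73 of 82 members), they were 3.97, 3.79 (auxiliary), 3.23, 1.68, 2.23 and 1.27 in the same order, and the medians of silent modifiers and sodium-activated channels did not move. The 4 main pore classes kept their order under both settings, with silent modifiers counted apart from voltage-gated pore genes. With these classes joined, the longest-transcript median lay between Kcng2 (3.25) and Kcnh1 (3.24), below the 3.33 of inward rectifiers. With all exons, the joined median lay between Kcnh1 (3.22) and Kcng2 (3.16), above the 2.68 of inward rectifiers. The lead of voltage-gated genes with the longest transcript therefore depended on counting silent modifiers apart. The joined order with the filter on low values is not given. With the longest transcript, voltage-gated auxiliary genes stood above voltage-gated pore genes, whereas they stood below them in the report (3.38 beside 3.52). As sums of linear levels in CPM per kb, voltage-gated pore genes had 334.8, voltage-gated auxiliary genes 240.2, inward rectifiers 148.4, silent modifiers 71.5, K2P channels 52.4, calcium-activated pores 35.6, sodium-activated channels 9.89 and calcium-activated auxiliary subunits 5.31, so K2P channels stood above calcium-activated pores by sum and below them by median. The highest member was the same gene in 8 of 8 classes with the longest transcript and in 7 of 8 without length, the exception being K2P. The longest transcript raised the level of a member by a median of 0.08 and at most 1.07. No paired analysis was possible because no value per library was used, and leaving out a library was not possible for the same reason. Depth per library is unknown, so no limit of detection is given for low genes such as Kcnn4.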
